A study of Mus musculus with 13 samples.

Results

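The interferon-stimulated genes described here were 37 listed genes of the type I interferon response, matched by symbol to the Ensembl identifiers of the deposited count table. All 37 were found among its 33618 genes, and all 37 were among the 16753 kept after genes with few counts were removed. No measured value was used to choose them, although results of these data were known when the list was made. Their RNA was measured in whole parametrial white adipose tissue (pmWAT), the fat depot beside the uterus, with 1 strand-specific mRNA library per mouse. Control mice were *Lmna* fl/fl (n = 7), with *loxP* sites around exons of the lamin A/C gene in every cell. *Lmna* iADKO mice (n = 6) carried the same floxed alleles together with *Adipoq*-CreERT2, a tamoxifen-activated Cre recombinase expressed from the adiponectin promoter in adipocytes. Mice of both genotypes received tamoxifen at 50 mg/kg on 5 consecutive days at 12 to 14 weeks of age, and tissue was taken 2 weeks posttamoxifen. The controls carried no Cre, so effects of the recombinase and of the deletion cannot be told apart. Since whole tissue was sequenced, fewer cells of a type and less RNA per cell cannot be told apart either.

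Type I interferons are secreted when a cell detects viral or misplaced nucleic acid. They bind the receptor chains IFNAR1 and IFNAR2, and the kinases JAK1 and TYK2 then switch on ISGF3, a transcription factor with STAT2 and IRF9 among its subunits. ISGF3 binds a DNA motif called the interferon-stimulated response element (ISRE) in the promoters of its targets. The targets block translation, degrade RNA, trap virus particles or restrain the signal, and in fat they can be expressed by adipocytes as well as by macrophages and other stromal cells.

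Between 18854223 and 19776491 reads per library were counted on genes. Values are library-scaled counts (CPM) after edgeR's TMM normalization, and differences are log2 fold changes of iADKO over fl/fl with their standard errors (SE). Genotypes were compared by edgeR's quasi-likelihood test with Benjamini-Hochberg adjustment over all 16753 genes, and genes at an adjusted p under 0.05 were called. *Lmna* itself was at 74.7 to 98.5 CPM in fl/fl and at 80.1 to 109 CPM in iADKO (log2 fold change 0.19, SE 0.079, edgeR adjusted p = 0.0785). Since the iADKO label did not come with less *Lmna* RNA, every direction given for the iADKO libraries rests on their labels. The counts cover the whole gene, so the floxed exons cannot be read apart. The 7 adipocyte markers were abundant in every library, summing to 16370 to 24130 CPM in fl/fl and 9824 to 17750 CPM in iADKO, and all 7 were called lower. Of 10 macrophage markers, 8 were called higher, and their sum was 1428 to 2747 CPM in fl/fl and 1944 to 3327 CPM in iADKO. Fl/fl 5 had the highest macrophage sum and the lowest adipocyte sum of its genotype, and iADKO 6 had the reverse.

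Of the 37 members, 9 were called higher in iADKO (24.3%) and 0 were called lower by edgeR. Among all genes tested, 14.1% were called higher and 16.3% lower. At an unadjusted p under 0.05, 10 were higher and 3 lower (*Ifi27l2a*, *Ifit3b* and *Parp9*), 13 of 37 against 7145 of all 16753 genes tested. DESeq2's Wald test called the same 9 members higher and these 3 lower, and limma on the deposited rlog values called 8 higher and *Ifit3b* lower. Over all 16753 genes the Wald test called 2513 higher and 3204 lower, and limma 2237 higher and 2922 lower. The median log2 fold change was 0.12 over the 37 members and 0.03 over all genes tested, and 30 of 37 members had a positive value against 9158 of 16753 genes. The called members were *Oasl1*, *Mx1*, *Oas1a*, *Oas3*, *Oas1g*, *Rsad2*, *Ifitm3*, *Usp18* and *Bst2*. In none of the 37 did every iADKO library lie above every fl/fl library, which was so in 2.71% of all genes tested. The 9 calls came from 5 of 11 families: the oligoadenylate synthetases gave 4 and the membrane restriction factors 2, and the MX GTPases, the nucleotide-directed enzymes and the ISG15 group gave 1 each.

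**Figure D1:**
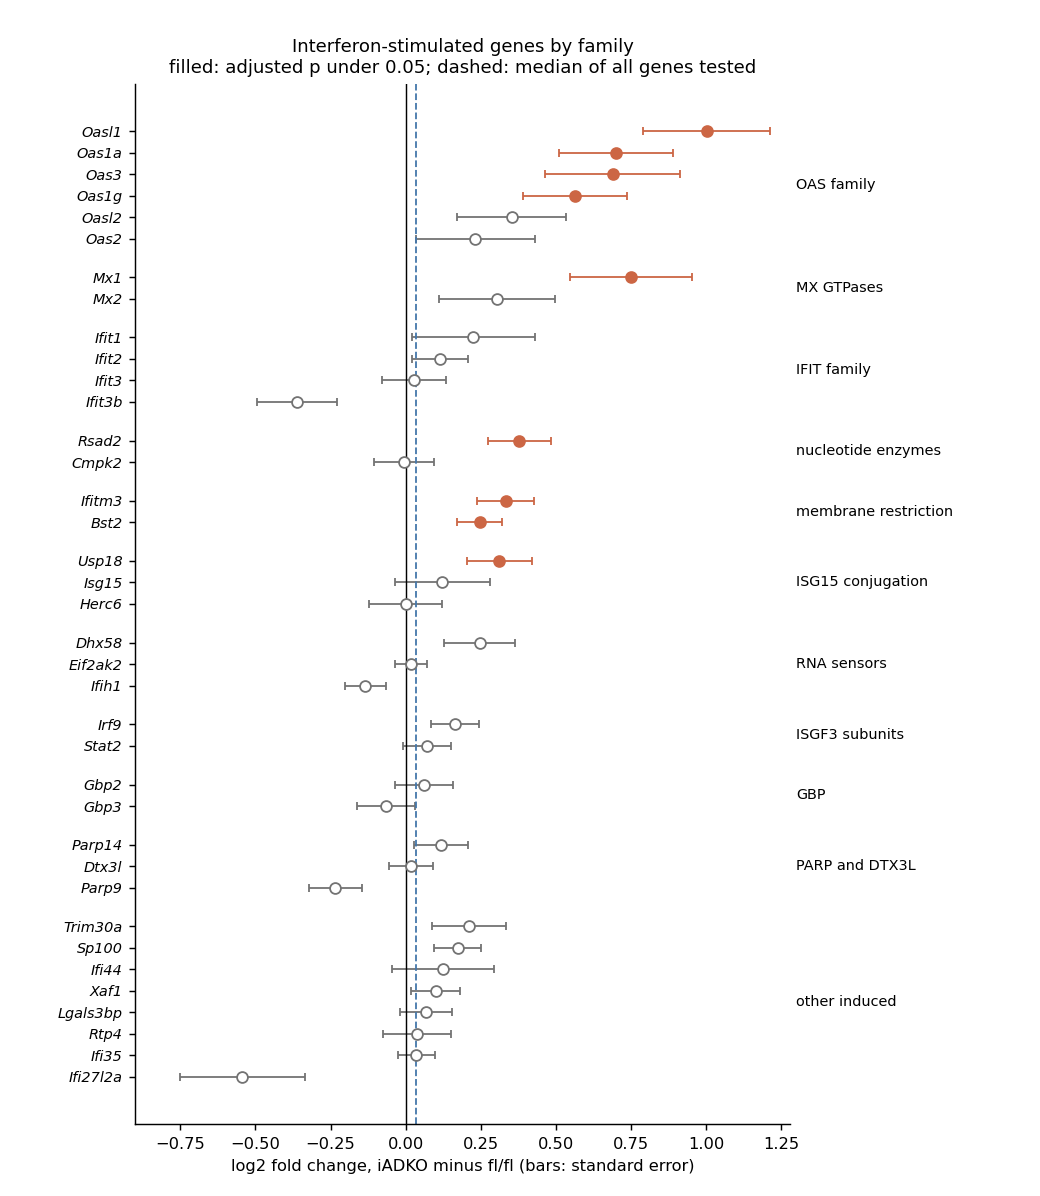
Log2 fold change of each of the 37 members (iADKO minus fl/fl, edgeR, x axis) with its standard error, in family blocks, with filled points for the 9 called members. The OAS family lies furthest to the right, from 0.23 to 1.00, and *Ifi27l2a* lies furthest to the left at -0.54.

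Oligoadenylate synthetases (OAS) sense double-stranded RNA and make a second messenger that switches on RNase L, which then cuts RNA. Of the 6 members of the family, 4 were called higher and the other 2 had positive values. *Oasl1* (chromosome 5 of GRCm39, 115061294 to 115075974) encodes an OAS-like protein without synthetase activity that holds back translation of *Irf7* mRNA. It was at 2.47 to 5.01 CPM in fl/fl (median 3.68) and at 3.73 to 10.4 CPM in iADKO (median 7.77). Its log2 fold change of 1.00 was the largest of the 37 members (SE 0.21, edgeR adjusted p = 0.00349). Of the 6 iADKO libraries, 5 lay above every fl/fl library, and iADKO 6 lay inside the fl/fl range.

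*Oas1a* (chromosome 5, 121031070 to 121046449), an active synthetase, was at 5.68 to 11.9 CPM in fl/fl (median 6.93) and at 7.27 to 15.2 CPM in iADKO (median 12.9), a log2 fold change of 0.70 (SE 0.19, edgeR adjusted p = 0.0139). Here 4 iADKO libraries lay above every fl/fl library, fl/fl 5 lay above iADKO 1, and iADKO 6 was close to the fl/fl median. *Oas1g*, its neighbour and near copy, was at 1.72 to 3.34 CPM in fl/fl (median 2.10) and at 2.11 to 3.96 CPM in iADKO (median 3.47), with a log2 fold change of 0.56 (SE 0.17, edgeR adjusted p = 0.0254). Their predicted coding sequences were 91.3% identical, and 38.2% of the 100-base windows of the *Oas1g* transcript, the length of a read, were found in *Oas1a*. How the study's counting split such reads is not given in the sources used here, so the values of this pair are uncertain. *Oas3*, the largest of the synthetases, was at 1.81 to 4.00 CPM in fl/fl (median 2.53) and at 2.69 to 6.02 CPM in iADKO (median 4.64), a log2 fold change of 0.69 (SE 0.22, edgeR adjusted p = 0.0325). In *Oas3* it was iADKO 3 and iADKO 6 that overlapped the controls.

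The other 2 members of the family had wide ranges in iADKO. *Oasl2*, a second OAS-like gene, was at 43.8 to 65.9 CPM in fl/fl (median 47.1) and at 30.9 to 82.7 CPM in iADKO (median 66.8), a log2 fold change of 0.35 (SE 0.18, edgeR adjusted p = 0.154). It was highest in iADKO 2 and lowest of all 13 libraries in iADKO 6. *Oas2* had a log2 fold change of 0.23 (edgeR adjusted p = 0.39), again with iADKO 6 below every fl/fl library. Without iADKO 6, both were called higher, *Oasl2* at 0.49 (edgeR adjusted p = 0.00477) and *Oas2* at 0.38 (edgeR adjusted p = 0.0392).

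MX proteins are dynamin-like GTPases that trap viral nucleoproteins. *Mx1* (chromosome 16, 97248235 to 97264107) was at 3.07 to 5.17 CPM in fl/fl (median 3.87) and at 3.68 to 9.80 CPM in iADKO (median 6.75), a log2 fold change of 0.75 (SE 0.20, edgeR adjusted p = 0.0134). The 2 lowest iADKO libraries, iADKO 6 and iADKO 1, lay within the fl/fl range and the other 4 above it. *Mx2*, next to it on the opposite strand, was at 2.09 to 3.22 CPM in fl/fl (median 2.25) and at 1.77 to 4.21 CPM in iADKO (median 3.00), with a log2 fold change of 0.30 (SE 0.19, edgeR adjusted p = 0.246). The iADKO range of *Mx2* enclosed the fl/fl range, with 3 iADKO libraries above every fl/fl library and 1 below every fl/fl library.

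*Rsad2* (chromosome 12) encodes viperin, an enzyme that makes a chain-terminating nucleotide, and *Cmpk2* next to it encodes a mitochondrial nucleotide kinase. *Rsad2* was at 23.3 to 36.0 CPM in fl/fl (median 29.8) and at 31.6 to 43.9 CPM in iADKO (median 37.5), a log2 fold change of 0.38 (SE 0.10, edgeR adjusted p = 0.0147). In *Rsad2*, 5 of 7 fl/fl libraries lay below every iADKO library and iADKO 3 was the lowest of its genotype. *Cmpk2* had a log2 fold change of -0.01 (edgeR adjusted p = 0.964) and similar ranges, 14.2 to 20.6 CPM in fl/fl and 14.7 to 20.6 CPM in iADKO.

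Both membrane restriction factors were called higher. *Ifitm3*, which blocks fusion of viruses with endosomes, was at 111 to 158 CPM in fl/fl (median 124) and at 135 to 181 CPM in iADKO (median 168), a log2 fold change of 0.33 (SE 0.095, edgeR adjusted p = 0.0172). *Bst2*, or tetherin, which holds budding virus at the cell surface, was at 34.8 to 47.7 CPM in fl/fl (median 41.4) and at 41.0 to 53.5 CPM in iADKO (median 49.7), a log2 fold change of 0.25 (SE 0.075, edgeR adjusted p = 0.0229). Among iADKO libraries both genes were lowest in iADKO 6. In the ISG15 group, *Usp18*, the protease that removes ISG15 from proteins and dampens the receptor, was at 5.17 to 6.61 CPM in fl/fl (median 5.85) and at 5.94 to 8.44 CPM in iADKO (median 7.26), a log2 fold change of 0.31 (SE 0.11, edgeR adjusted p = 0.0404). Only iADKO 2, iADKO 4 and iADKO 5 exceeded the fl/fl range in *Usp18*. *Isg15*, the ubiquitin-like modifier itself, had a log2 fold change of 0.12 (edgeR adjusted p = 0.583), and *Herc6*, the mouse ligase that attaches it, was at -0.00051 (edgeR adjusted p = 0.998).

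**Figure D2:**
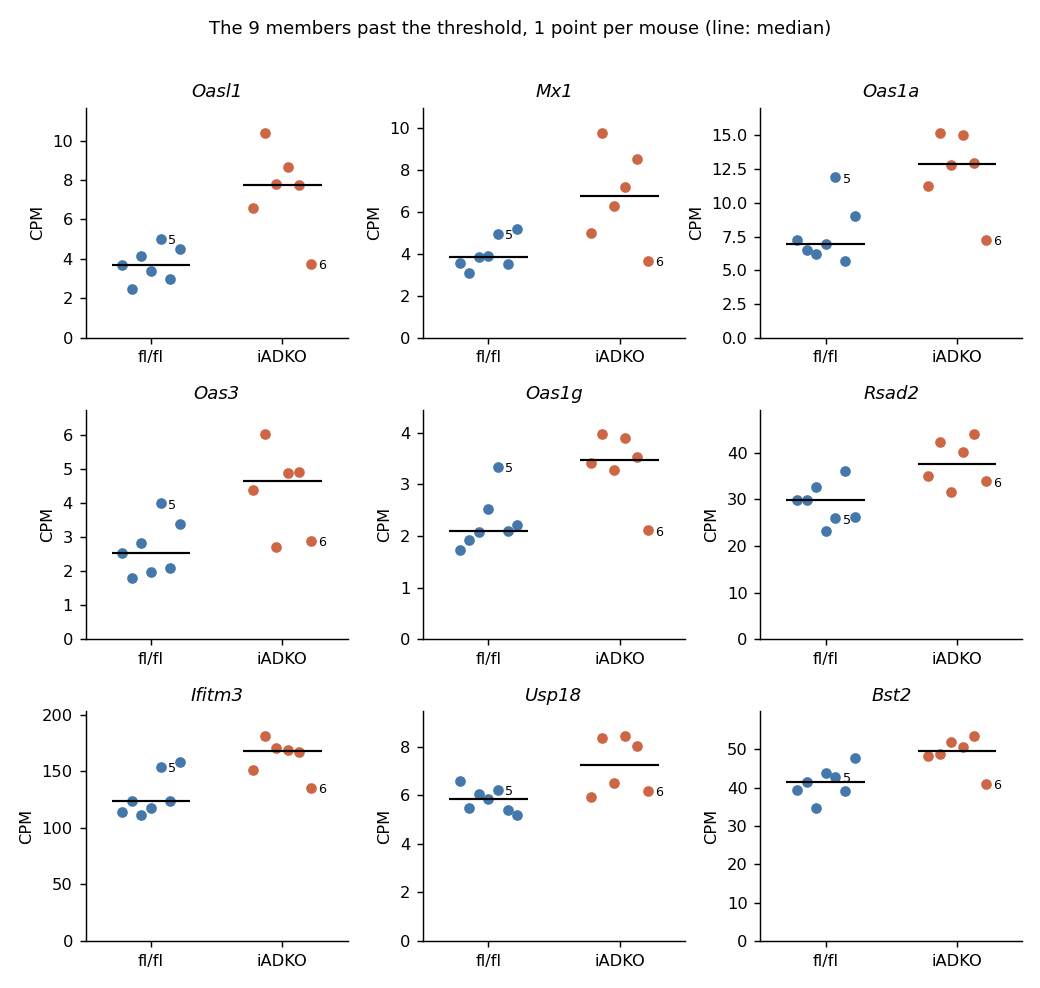
CPM (y axis, from 0) of the 9 called members in each of 7 fl/fl and 6 iADKO mice, 1 point per mouse with the median as a line and fl/fl 5 and iADKO 6 numbered. In *Oasl1*, *Mx1*, *Oas1a*, *Oas1g*, *Ifitm3* and *Bst2*, iADKO 6 is the lowest iADKO mouse, and fl/fl 5 is the highest control in *Oasl1*, *Oas1a*, *Oas3* and *Oas1g*.

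None of the 4 IFIT genes, whose proteins bind foreign RNA and stop its translation, was called. Log2 fold changes were 0.23 for *Ifit1*, 0.11 for *Ifit2* and 0.03 for *Ifit3*. *Ifit3b* was at 9.52 to 17.6 CPM in fl/fl (median 12.7) and at 8.61 to 12.4 CPM in iADKO (median 9.54), a log2 fold change of -0.36 (SE 0.13, edgeR adjusted p = 0.0533). The fl/fl libraries ran higher in *Ifit3b*, with fl/fl 1 at the top, and 3 iADKO libraries lay below all of them. *Ifit3* and *Ifit3b* lie 18884 bp apart on chromosome 19, with *Ifit1bl1* between them. *Ifit3* and *Ifit3b* encode predicted proteins of 403 residues that are 98.8% identical. They share 26.6% of the 100-base windows of the *Ifit3* transcript, so reads between them can be misassigned.

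The RNA sensors, the ISGF3 subunits and the guanylate-binding proteins gave no call. Among the RNA sensors, *Dhx58* (LGP2) was at 9.55 to 14.3 CPM in fl/fl (median 11.4) and at 11.4 to 17.7 CPM in iADKO (median 13.9), a log2 fold change of 0.25 (SE 0.12, edgeR adjusted p = 0.13). *Eif2ak2* (PKR, the kinase that stops translation on double-stranded RNA) was at 0.02 and *Ifih1* (MDA5, a sensor of long double-stranded RNA) at -0.13. The ISGF3 subunits *Irf9* and *Stat2* were at 0.16 and 0.07. Of the guanylate-binding proteins, GTPases that attack the membranes around microbes, *Gbp2* was at 103 to 151 CPM in fl/fl (median 133) and at 117 to 166 CPM in iADKO (median 132), a log2 fold change of 0.06 (SE 0.097, edgeR adjusted p = 0.664), and *Gbp3* was at -0.07. Apart from *Dhx58*, these genes had log2 fold changes between -0.13 and 0.16.

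*Parp9*, a macrodomain protein that works with the ubiquitin ligase encoded by *Dtx3l*, was at 54.5 to 88.5 CPM in fl/fl (median 71.5) and at 55.4 to 62.1 CPM in iADKO (median 60.3), a log2 fold change of -0.23 (SE 0.088, edgeR adjusted p = 0.0556). Its iADKO libraries fell within a narrow band inside the fl/fl range. *Dtx3l* was at 0.02 and *Parp14* at 0.12. Among the other induced proteins, *Lgals3bp*, a secreted glycoprotein, had the highest CPM of the 37 members, at 304 to 418 CPM in fl/fl (median 338) and at 314 to 397 CPM in iADKO (median 380), with a log2 fold change of 0.07 (SE 0.085, edgeR adjusted p = 0.57). *Ifi27l2a*, a small membrane protein gene, was at 164 to 404 CPM in fl/fl (median 219) and at 124 to 234 CPM in iADKO (median 161), a log2 fold change of -0.54 (SE 0.21, edgeR adjusted p = 0.0621). Its fl/fl range was wide, with fl/fl 7 at the top, and 3 iADKO libraries lay below every control. The rest of this group was at 0.21 for *Trim30a*, 0.17 for *Sp100*, 0.12 for *Ifi44*, 0.10 for *Xaf1*, 0.04 for *Rtp4* and 0.04 for *Ifi35*, none of them called.

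Per kilobase of exon, levels of the members spanned from 0.377 CPM per kb for *Oas3* to 224 CPM per kb for *Ifi27l2a* in fl/fl. *Ifitm3* at 101, *Lgals3bp* at 66.5 and *Gbp2* at 51.2 CPM per kb followed *Ifi27l2a*. Of the 10 members with the lowest level per kb in fl/fl, 6 were called higher (*Usp18*, *Oasl1*, *Mx1*, *Oas1a*, *Oas1g* and *Oas3*), against 9 of all 37. The fl/fl values used for this ranking also enter the fold change, so the count cannot show a link between level and change. The ranking also depends on the length used, the summed exons of the annotation. For *Oas1a* these were 7989 bp, against 1911 bases in its canonical transcript.

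The members also varied between mice of the same genotype. Of the 6 iADKO mice, iADKO 2 was the highest in 23 of the 37 members and iADKO 5 in 8, while iADKO 6 was the lowest in 25. Of the 7 fl/fl mice, fl/fl 5 was the highest in 12 members and fl/fl 2 the lowest in 18. As the median over the 37 members of log2 CPM minus the fl/fl mean, iADKO 6 was at -0.13 and the other iADKO mice between 0.07 and 0.33, and the fl/fl mice lay between -0.18 and 0.11. For the 9 called members this median was 0.03 in iADKO 6, between 0.33 and 0.81 in the other 5 iADKO mice, and 0.32 in fl/fl 5, the highest of the controls. The macrophage markers summed to 1944 CPM in iADKO 6, the lowest of its genotype, and 2747 CPM in fl/fl 5, the highest of its genotype. Apart from fl/fl 5 and fl/fl 7, the fl/fl mice had sums of 1428 to 1692 CPM and called-member medians of -0.18 to -0.03. Fl/fl 7 was at 2071 CPM and 0.28. Apart from iADKO 6, the iADKO mice had sums of 2705 to 3327 CPM and called-member medians of 0.33 to 0.81. Within these groups the order of the sums and that of the medians differed. Mouse iADKO 4 had the highest sum, 3327 CPM, with a median of 0.12 over the 37 members and 0.78 over the called ones. In iADKO 5 these were 2705 CPM, 0.33 and 0.64. Fl/fl 2, at 1692 CPM, had the lowest 37-member median, -0.18. The part of the macrophage markers in the result was not tested. Without iADKO 6, 13 members were called higher, against 15.9% of all genes tested, and *Oas2*, *Oasl2*, *Trim30a* and *Sp100* were the 4 added.

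**Figure D3:**
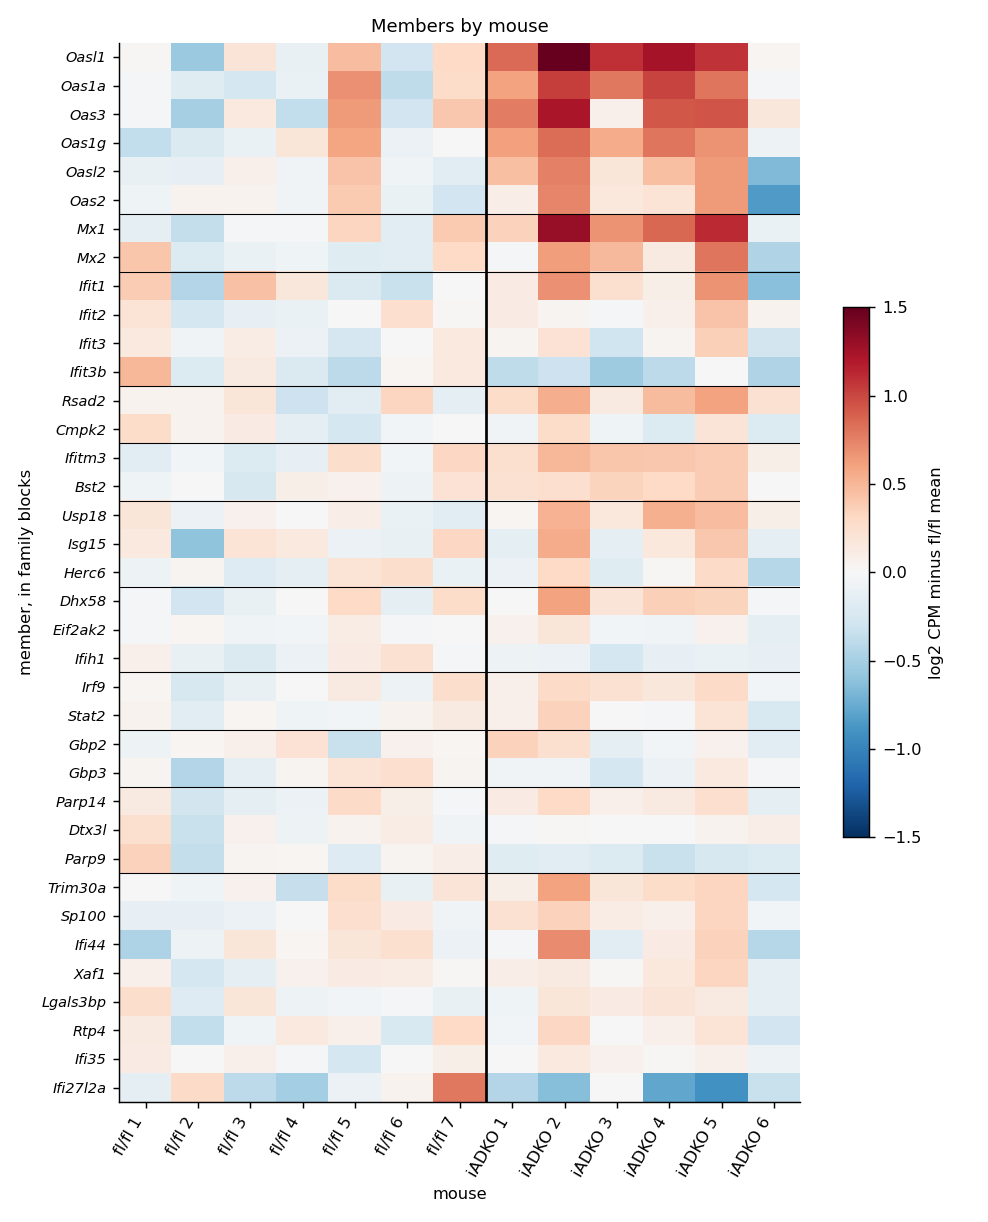
Log2 CPM of the 37 members in 13 mice (colour, relative to the fl/fl mean of each member), in family blocks. The OAS block and *Mx1* are red in iADKO 1 to 5 except for pale cells in *Oas2*, *Oasl2* and *Oas3*, iADKO 6 is pale or blue in most members, and *Ifi27l2a* and *Ifit3b* are blue in most iADKO mice.

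**Figure D4:**
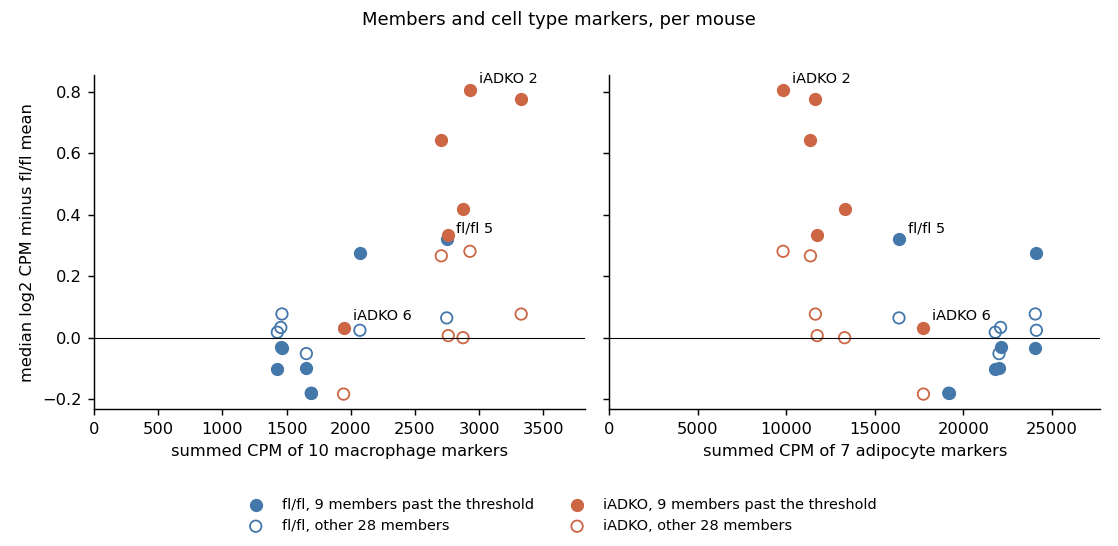
Median over members of log2 CPM minus the fl/fl mean (y axis) against the summed CPM of 10 macrophage markers (left) and 7 adipocyte markers (right), for the 9 called members (filled) and the other 28 (open) in each mouse. Fl/fl 5, at 2747 CPM of macrophage markers, sits among the iADKO mice, and iADKO 6, at 1944 CPM, sits among the fl/fl mice.

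Animal numbers in the library names fall into 4 series, and both genotypes occur in 2 of them. Where a series held 3 controls and 2 iADKO mice, the median difference of the 37 members was 0.27 and 32 were higher in iADKO. In the other, with 2 mice of either genotype and among them fl/fl 5 and iADKO 6, it was -0.02 and 15 were higher. All 9 called members were higher in the first of these series, with a median of 0.91, and 8 of 9 in the other, with a median of 0.22, the exception being *Oas1g* at -0.02. With the series as a block in edgeR, 1 member, *Rsad2*, was called (log2 fold change 0.45, edgeR adjusted p = 0.0444), against 4.68% of all genes called higher. *Oasl1* was then at 0.97 (edgeR adjusted p = 0.0501), and the adjusted p of the other 7 called members was between 0.0697 and 0.232. With the replicate number as a block in its place, *Rsad2* was not called (edgeR adjusted p = 0.0725), nor was *Usp18* (edgeR adjusted p = 0.12).

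Leaving out 1 library at a time, *Oasl1*, *Mx1*, *Oas1a*, *Rsad2* and *Ifitm3* passed the threshold in 13 of 13 fits. *Bst2* did not pass without iADKO 3 or iADKO 5 (highest edgeR adjusted p = 0.0528), and *Oas1g* did not without fl/fl 1, iADKO 2 or iADKO 4 (highest edgeR adjusted p = 0.061). *Oas3* passed in 5 of 13 fits and failed without fl/fl 1, 2, 4 or 6 or iADKO 1, 2, 4 or 5 (highest edgeR adjusted p = 0.0827). *Usp18* also passed in 5, failing without fl/fl 2, 3, 4, 6 or 7 or iADKO 2, 4 or 5 (highest edgeR adjusted p = 0.0954). Among uncalled members, *Sp100* was called higher without fl/fl 5 or iADKO 6 and *Irf9* without fl/fl 7 (lowest edgeR adjusted p = 0.0246 and 0.0445). *Ifit3b* was called lower without fl/fl 2, 4 or 5 or iADKO 5, *Parp9* without fl/fl 2 or 5, and *Ifi27l2a* without fl/fl 4 or iADKO 3 (lowest edgeR adjusted p = 0.0166, 0.0126 and 0.0336). When libraries were scaled by their totals alone, without TMM factors, 24 members were called higher and 0 lower, but so were 44.2% of all genes, and the median of all genes moved to 0.24. Relative to that median the members' median was 0.09 higher, as it was with TMM factors.

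Many members lie close to another member, in some cases with other genes between them. The ratio of counts of such neighbours within a mouse needs no normalization between libraries. The 12 pairs of adjacent members no more than 100 kb apart were tested by permuting the genotypes of the 13 mice exhaustively (exact permutation test, two-sided, smallest possible p 0.000583), and p was adjusted over the 12 pairs. This comparison was chosen after the values were seen, and the permutation did not keep mice within their animal-number series. The ratio of *Ifit3b* to *Ifit3* was -1.24 ± 0.17 on the log2 scale in fl/fl (SD, n = 7) and -1.60 ± 0.13 in iADKO (SD, n = 6), a difference of -0.36. All 6 iADKO ratios lay below all 7 fl/fl ratios (exact permutation p = 0.000583, adjusted p = 0.00699). Reads that fit both genes may enter this ratio, as how they were counted is not given in the sources used here. The log2 ratio of *Oasl1* to *Oasl2* was -3.74 ± 0.28 in fl/fl and -3.07 ± 0.20 in iADKO, a difference of 0.67 (exact permutation p = 0.00233, adjusted p = 0.014). These genes lie 10998 bp apart on the same strand and share no 100-base window, and within both mixed series the difference was 0.76 and 0.63.

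The log2 ratio of *Cmpk2* to *Rsad2* was -0.76 ± 0.20 in fl/fl and -1.15 ± 0.17 in iADKO, a difference of -0.39 (exact permutation p = 0.00466, adjusted p = 0.014). These are divergent neighbours 12751 bp apart, with differences of -0.59 and -0.36 within the 2 series. *Parp9* to *Dtx3l*, a divergent pair that overlaps by 682 bp, fell from 0.18 ± 0.14 to -0.06 ± 0.07, a difference of -0.25 (exact permutation p = 0.00466, adjusted p = 0.014). *Mx2* to *Mx1* differed by -0.44 (exact permutation p = 0.0163, adjusted p = 0.0361), as did *Ifit1* to *Ifit3b* by 0.54 (exact permutation p = 0.0181, adjusted p = 0.0361), though the latter was -0.13 in the series with fl/fl 5 and iADKO 6. In the other 6 pairs the exact permutation test gave adjusted p between 0.0679 and 0.533, with *Oas3* to *Oas2* the lowest.

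**Figure D5:**
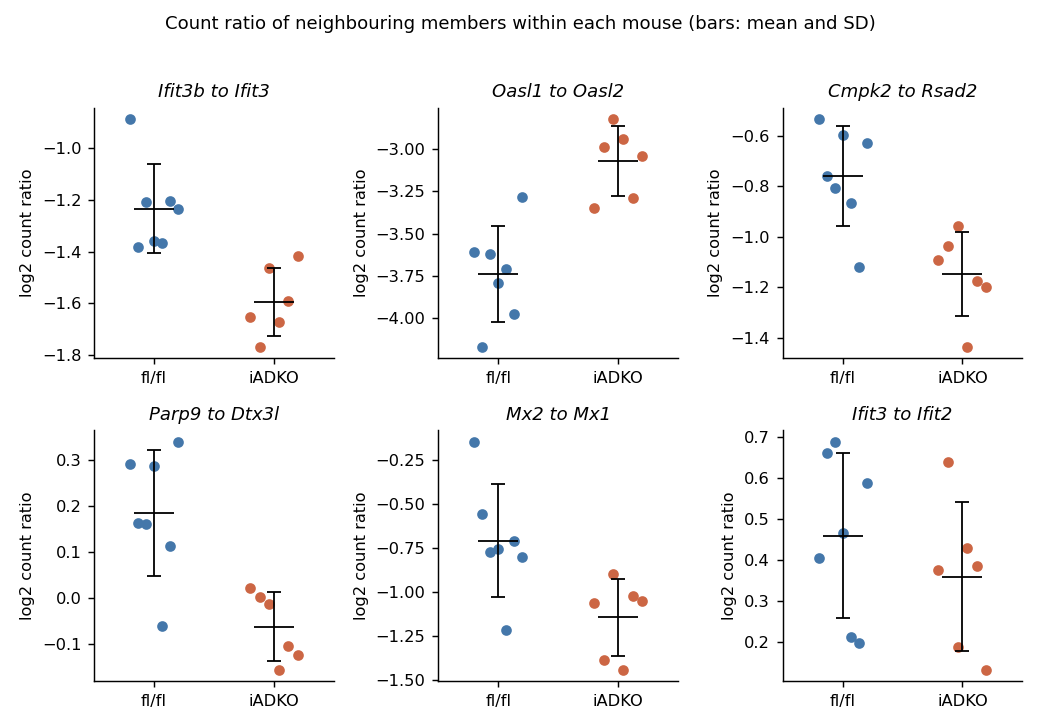
Log2 ratio of counts of neighbouring members within each mouse (y axis) for 6 of the 12 pairs, with the mean and SD of 7 fl/fl and 6 iADKO mice. *Ifit3b* to *Ifit3* does not overlap between genotypes, and *Ifit3* to *Ifit2* overlaps fully with means of 0.46 and 0.36.

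The DNA that ISGF3 reads was looked up in the RefSeq promoter windows of GRCm38.p6, which run from 250 bases before to 50 bases after a gene's start. A window was found for 28 of the 37 members. The ISRE core was searched on both strands as GAAANNGAAA. It was present in 16 of the 28 members (57.1%) and in 4.01% of the 11733 genes tested that have a window. Of the called members, 6 of 7 held a core, and of the uncalled members 10 of 21. The exception among the called was *Oasl1*, the member with the largest log2 fold change, whose window held 0 matches. A match is a match of letters and not evidence of binding, and no match says only that these letters are not in the window.

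Stretches with cores are printed below for called members and for uncalled IFIT genes and *Isg15*, since both kinds of member carry the same core. They are written 5′ to 3′ on the gene's strand, with the cores in capitals, and end before the start site, except for *Ifitm3*, whose cores begin 2 bases after it and are printed alone. The first lines are called members:
Oas1a, chr5:120907526-120907565, minus strand: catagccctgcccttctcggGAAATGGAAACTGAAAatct
Oas1g, chr5:120887614-120887651, minus strand: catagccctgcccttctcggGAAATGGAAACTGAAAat
Oas3, chr5:120777705-120777754, minus strand: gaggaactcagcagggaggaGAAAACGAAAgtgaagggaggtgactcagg
Rsad2, chr12:26456543-26456592, minus strand: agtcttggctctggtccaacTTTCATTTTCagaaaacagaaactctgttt
Bst2, chr8:71537567-71537622, minus strand: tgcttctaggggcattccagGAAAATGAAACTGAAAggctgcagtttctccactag
Ifitm3, chr7:141010716-141010742, minus strand: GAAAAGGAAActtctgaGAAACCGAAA
The uncalled members follow:
Isg15, chr4:156200855-156200916, minus strand: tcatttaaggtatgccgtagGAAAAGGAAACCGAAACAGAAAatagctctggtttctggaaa
Ifit1, chr19:34640765-34640833, plus strand: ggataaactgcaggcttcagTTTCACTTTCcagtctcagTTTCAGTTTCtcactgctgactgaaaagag
Ifit3, chr19:34583353-34583436, plus strand: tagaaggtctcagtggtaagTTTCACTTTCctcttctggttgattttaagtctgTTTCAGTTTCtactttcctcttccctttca
Ifit3b, chr19:34607749-34607832, plus strand: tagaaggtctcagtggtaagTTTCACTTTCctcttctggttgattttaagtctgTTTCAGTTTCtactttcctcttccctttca

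The 84 bases shown for *Ifit3* and *Ifit3b* were identical, with 0 differences, while the count ratio of the 2 genes differed between genotypes as given above. The 38 bases shown for *Oas1g* differed at 0 positions from the *Oas1a* stretch, and no difference in the ratio of these 2 genes was detected (log2 difference 0.14, exact permutation p = 0.231). *Isg15* held 3 overlapping cores, the most of any member, and had a log2 fold change of 0.12.

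The rest of the pathway was taken from lists of genes that are not members, apart from *Usp18*. Beside the counts in these lists, 14.1% of all genes tested were called higher and 16.3% lower. Of 18 type I interferon ligand genes, 5 were in the count table, with 6 counts in all over 13 libraries, so ligand RNA was not measurable at this depth. *Ifnb1* was on that list but not among the 5 found. *Ifng*, the type II ligand, had 18 counts in all. Of 6 interferon receptor genes, *Ifngr2* was called higher (log2 fold change 0.36, edgeR adjusted p = 0.00948), and *Ifnar1* and *Ifnar2* were at 0.15 and 0.07 (edgeR adjusted p = 0.11 and 0.452).

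Of 8 interferon regulatory factors, *Irf5* and *Irf8*, both abundant in macrophages, were called higher (log2 fold change 0.78 and 0.67), and *Irf7*, the factor that amplifies the type I response, was at -0.13 (edgeR adjusted p = 0.205). Of 15 nucleic acid sensors and adaptors tested, 9 were called higher and 1 lower. These were *Tlr9* (0.69), *Tlr7* (0.64), *Aim2* (0.61), *Samhd1* (0.43), *Zbp1* (0.40), *Ticam1* (0.39), *Myd88* (0.29), *Adar* (0.23) and *Tbk1* (0.19), and, lower, *Mavs* (-0.39), the adaptor of RIG-I and MDA5. Of 6 brakes on the signal, *Ptpn6* (0.76), *Usp18* (0.31), *Ptpn2* (0.27) and *Pias1* (0.24) were called higher. Among 54 tested genes of a further list of interferon-stimulated genes, 17 were called higher and 3 lower, with a median log2 fold change of 0.21. The called genes furthest from 0 were *Ifi30* (0.85), *Slfn1* (0.75), *Slfn2* (0.74) and *Phf11b* (0.67). Among 28 tested genes that lean toward interferon gamma, 5 were called higher, a share near the 14.1% of all genes. They were *Cxcl10* (1.69), *Ciita* (0.77), *Irf8* (0.67), *Batf2* (0.47) and *Psmb8* (0.34). With the animal-number series as a block, most of these calls were lost, and 4.68% of all genes were called higher. Of the 9 sensors and adaptors called higher, *Ticam1* and *Samhd1* remained and 7 did not, of the 17 further interferon-stimulated genes 4 remained, of the 4 brakes 0 and of the 5 interferon gamma-leaning genes 4, all but *Batf2*. *Ifngr2* was then at an edgeR adjusted p of 0.0783, and *Irf5*, *Irf8* and *Mavs* remained past the threshold. Several of these genes are also expressed by macrophages, whose markers were higher in iADKO without the block. With it, no macrophage marker kept its call (edgeR adjusted p between 0.0507 and 0.153 for those called without it). The part of cell number in these values was not tested. Of the other immune markers, 3 of 4 for monocytes, 4 of 7 for T cells, 3 of 5 for dendritic cells, 2 of 5 for B cells, 1 of 5 for neutrophils, 1 of 5 for NK cells and 1 of 4 for plasmacytoid dendritic cells, which secrete much interferon, were called higher. These marker lists are short, and 14.1% of all genes tested were called higher. The plasmacytoid markers summed to 7.95 to 20.5 CPM in fl/fl and 7.84 to 15.3 CPM in iADKO.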

How the data were processed

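Bulk RNA-Seq of pmWAT from 13 mice was analyzed. For each gene and library the authors deposited raw counts, not normalized, and log2 values made from them by DESeq2's regularized log. Per the submitters' processing notes and the study's methods, reads were checked with FastQC 0.12.1, aligned with STAR 2.7.11a to mm39 and analyzed with DESeq2. The counting tool, its strand setting and the annotation are not given in the sources used here. Genotypes and replicate numbers came from the sample labels. The labels give all libraries the same batch, and the series came from animal numbers in the library names. Each library carries its own animal number.

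Here, edgeR 4.0.16 (R 4.3.3) was run with filterByExpr, TMM normalization and the robust quasi-likelihood test (glmQLFit, glmQLFTest) over all 16753 genes, with Benjamini-Hochberg adjustment and a threshold of 0.05. The SE was computed from the fold change and the test statistic. Log2 CPM used a prior count of 2, and neighbour ratios a pseudocount of 0.5. The steps were tested on simulated data. Alternatives were DESeq2 1.42.0 size factors and Wald test, limma 3.58.1 on the deposited log2 values, other filters, blocks and each library left out. Scaling by library totals and leaving out fl/fl 5 with iADKO 6 were chosen after seeing the data.

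The members, gene lists and tests were chosen with earlier results of these data known. All 37 members are named, with full values for those past the threshold, the 6 others with the largest absolute log2 fold change and the 4 with the highest average log2 CPM. Some single-gene results are not reported. Other genes named are *Lmna*, signaling genes and list genes past the threshold, at most 4 in a list with over 10. Symbols, gene coordinates and overlaps are from GENCODE vM39 (GRCm39), which held 33184 of the 33618 identifiers. Coding sequences were taken as the longest open reading frame of the canonical transcript. Promoter windows are from RefSeq on GRCm38.p6. CPM per kb used the summed exon length. Depth was 18854223 to 19776491 counts per library, and the errors given include counting error. No 2 libraries of 1 genotype agreed within sampling noise (chi-square of at least 8.90 per degree of freedom).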

Additional observations from a re-analysis of the deposited data

Results flagged for a closer look

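In each genotype, the highest and the lowest mouse of each member were compared with the spread of the rest by Dixon's gap rule on log2 CPM, which made 74 groups, and 5 stood apart. Chance alone gives about 1 in 20. *Oas1g* was at 2.11 CPM in iADKO 6, and the next iADKO mouse was at 3.27 CPM. *Oasl2* was at 65.9 CPM in fl/fl 5, and the next fl/fl mouse was at 51.5 CPM. *Ifit2* was at 28.7 CPM in iADKO 5, above the next at 23.3 CPM. *Ifi35* was at 25.7 CPM in fl/fl 5, below the next at 30.1 CPM. *Ifih1* was at 35.9 CPM in iADKO 3, below the next at 39.5 CPM. No cause was tested for these values.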

How the results depend on the processing

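The count of 9 members called higher stayed within 1.5 times of 9 under DESeq2 size factors, DESeq2's Wald test, both other filters, limma on the deposited log2 values and edgeR without the robust option, which gave 8 or 9. Those fits called 4.83% to 16.2% of all genes higher. With the replicate block (fl/fl 7 left out), 7 were called higher and 0 lower, without *Rsad2* and *Usp18*, in a fit that called 14.3% of all genes higher. The labels do not say that the numbers pair mice, and the residuals of same-numbered mice correlated at -0.0265 to 0.217, above 0.1 in 3 of 6 pairs. The number-series block called 1. Leaving out 1 library at a time called 6 to 13 higher and 0 to 2 lower. Those fits called 10.61% to 19.95% of all genes higher, and 2216 to 3285 genes lower. Without fl/fl 5 and iADKO 6 together, 15 were higher and 2 lower, in a fit that called 19.6% of all genes higher. Scaling by library totals called 24, with a median of 0.33. Counts of members called lower were 2 with DESeq2 size factors, 3 with the Wald test and 1 with limma. Of all 16753 genes, these fits called 2913, 3204 and 2922 lower. The median over members was 0.0694 with limma, -0.0171 and 0.273 within the 2 mixed series, and 0.0745 to 0.172 with 1 library left out. *Lmna* was at 0.399 by library totals (edgeR adjusted p = 0.00101), at 0.19 without fl/fl 5 and iADKO 6 (edgeR adjusted p = 0.0344), and at 0.155 to 0.24 with 1 library left out, past the threshold without fl/fl 1 or iADKO 6.

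In the mixed series that holds fl/fl 5 and iADKO 6, 15 members had the opposite sign to that over all libraries, among them *Oas2* at -0.49, *Oasl2* at -0.29, *Ifi44* at -0.26, *Ifit1* at -0.24 and the called *Oas1g* at -0.0171, and in the other mixed series 4 did. Under the other settings, the members that reversed were uncalled. By library totals *Herc6* was at 0.202, *Cmpk2* at 0.204, *Gbp3* at 0.134 and *Ifih1* at 0.067. *Herc6* was at 0.00512 with at least 10 counts in every library, at 0.00405 with the number-series block and at 0.0854 without fl/fl 5 and iADKO 6, a setting in which *Ifi35* was at -0.00439 and *Dtx3l* at -0.0122. With limma, *Ifit3* was at -0.000744 and *Eif2ak2* at -0.00147. With 1 library left out, ranges that crossed 0 were -0.0215 to 0.216 for *Ifi44*, -0.0157 to 0.0984 for *Rtp4*, -2.46e-05 to 0.0579 for *Ifi35*, -0.0396 to 0.0874 for *Ifit3*, -0.0166 to 0.0468 for *Eif2ak2*, -0.0328 to 0.059 for *Dtx3l*, -0.0654 to 0.0726 for *Herc6* and -0.0665 to 0.0416 for *Cmpk2*. The cause was not tested.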
